A study of Mus musculus with 12 samples.

Results

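Myelin and mature oligodendrocyte genes form a set of 37 genes that myelinating glia of the brain transcribe, and their expression was compared in the striatum of TAAR5-KO and wild-type mice. The set was given as a list of 38 names, in which Mobp stood more than once. The remaining 37 names were looked up in a count table of 57132 gene features, where 36 matched by name and Sept4 matched through its current symbol, Septin4. All 37 passed the filter on low counts that left 13902 features for testing, so no member was lost. The list was not built from the values described here, although it was chosen with earlier results from these libraries known.

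The series holds 12 bulk RNA-seq libraries of striatum, 6 labelled TAAR5-KO and 6 labelled WT. The animals were C57Bl/6 littermates of 10 months kept under the same housing, and the labels name no treatment. TAAR5 is a trace amine-associated receptor, a G protein-coupled receptor best known from the olfactory system. The sources used here do not describe the allele beyond its name. The study's methods give mice of both sexes, but the labels do not say which library came from which sex. The libraries carry the numbers NK1 to NK6 (labelled TAAR5-KO) and NK7 to NK12 (labelled WT), which the labels do not tie to individual animals.

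Oligodendrocytes wrap axons with myelin, a stack of plasma membrane that is rich in lipid and is held together by a small set of abundant proteins. In the striatum, most myelin lies in the bundles of the internal capsule that run between the spiny projection neurons. Mature oligodendrocytes are recognised by transcripts for the membrane proteins of the sheath, for the enzymes that make its glycolipids, for the cytoskeleton that extends it, and for connexins that couple glia to each other.

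The knocked-out gene was counted first. Taar5 had 2, 3, 2, 1, 2 and 6 counts in the libraries labelled TAAR5-KO, NK1 to NK6 in order. It had 0, 1, 0, 0, 2 and 0 counts in the libraries labelled WT, NK7 to NK12 in order. These counts are very low and lie higher under the KO label, so they go against the labels rather than check them, and the part of the gene that the knockout allele removes is not given in the sources used here. Libraries are therefore called KO-labelled and WT-labelled, and every direction given rests on those labels.

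Total counts ran from 11269915 to 34824450 per library, but ribosomal RNA features took 64.3% to 88.1% of them. Counts outside ribosomal RNA numbered 1819907 to 6399188 and did not differ between the labels beyond their spread (two-sided exact permutation test, p = 0.976). The scaling factors of the trimmed mean of M-values (TMM), which correct library size for composition, fell into separate ranges. NK1, NK2, NK3, NK9 and NK10 had factors of 0.375 to 0.655 and 85.6% to 88.1% ribosomal RNA, whereas the other 7 libraries had factors of 1.13 to 2.46 and 64.3% to 81.9%. Of these 5 libraries with low factors, 3 were KO-labelled and 2 were WT-labelled, and results below are also given within each of these library sets. Fewer features had at least 1 count under the KO label (23387 ± 1676 against 26071 ± 1481, SD, n = 6, exact permutation p = 0.0238).

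The labelled tissue held oligodendrocyte RNA in every library. All 10 defining markers (Mbp, Mobp, Mog, Mag, Cnp, Cldn11, Opalin, Ermn, Ugt8a and Aspa) were counted in each of the 12 libraries, with no count under 23 and no level under 2.08 CPM (counts per 1000000 of the TMM-scaled library size). The 37 members together took 9544 to 46870 counts per library, 0.246% to 0.835% of the counts outside ribosomal RNA. Mbp, Mobp and Kif5a made up 69.4% of these member counts. Only Pllp had a library at or under 3 counts, the limit that a count of 0 allows, with 2 to 20 counts.

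Mobp, Cnp and Opalin are shown with the sequence before their start sites, because they stand for different outcomes below, a high level with little difference between the labels, a lower mean, and a higher mean. The windows come from RefSeq on GRCm38.p6 and hold 250 bases before to 50 bases after the start, and the stretches printed here end before any annotated exon. Capitals mark matches on either strand to the SOX core (ACAAAG or ACAATG), letters bound by the SOX family to which the oligodendrocyte factor SOX10 belongs, or to the MYRF core (CTGGNAC), letters bound by the myelin regulatory factor.
Mobp, chr9:120149492-120149617, plus strand, 250 to 125 bases before the start: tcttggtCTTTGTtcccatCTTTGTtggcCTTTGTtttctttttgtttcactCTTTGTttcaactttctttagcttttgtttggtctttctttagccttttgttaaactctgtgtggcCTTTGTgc
Cnp, chr11:100574689-100574888, plus strand, 250 to 51 bases before the start: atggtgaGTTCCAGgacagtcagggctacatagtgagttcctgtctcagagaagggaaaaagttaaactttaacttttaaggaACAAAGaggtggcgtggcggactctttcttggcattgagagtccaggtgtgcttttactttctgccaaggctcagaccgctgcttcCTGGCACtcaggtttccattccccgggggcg
Opalin, chr19:41077164-41077363, minus strand, 250 to 51 bases before the start: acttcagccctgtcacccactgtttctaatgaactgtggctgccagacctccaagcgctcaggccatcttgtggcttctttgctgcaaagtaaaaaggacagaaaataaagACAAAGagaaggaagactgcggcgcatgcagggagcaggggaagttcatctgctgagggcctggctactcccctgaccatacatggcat

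The Mobp window held 6 SOX core matches, and it was the only one of 32851 promoter windows with that many. The table gave 41 windows for 27 of the members. The SOX core lay in 16 of the 41 windows (39.0%) and in 28.6% of all 32851 windows, and the MYRF core lay in 15 (36.6%) and in 19.3%. The E-box CAGCTG, letters bound by the basic helix-loop-helix class that includes the OLIG factors, lay in 8 (19.5%) and in 16.3%. Over their full windows, Cnp held 1 SOX core and 2 MYRF core matches, and Opalin held 2 and 1, so each had both cores. Of the Opalin matches, only 1 SOX core match lies in the stretch printed. Binding was not measured here, and a match describes letters only.

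The members' levels spanned a wide range (the plot of levels per kilobase). Divided by the length of the merged exons, mean levels ran from 0.244 CPM per kb for Pllp, a membrane proteolipid, to 46.5 for Kif5a, a kinesin heavy chain. Kif5a stood 45th in level per kilobase among the 13902 features, and it is also known as a motor protein of neurons, so its level in striatum is not that of oligodendrocytes alone. Mbp, the basic protein that joins the inner faces of the membrane, followed at 31.9 CPM per kb (61st), and Mobp, a related basic protein of the sheath, at 22.5 (81st). Plekhb1, a membrane-binding pleckstrin homology protein, reached 11.6 (221st), and no other member exceeded 8.53, the level of the carbonic anhydrase gene Car2.

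**Figure D1:**
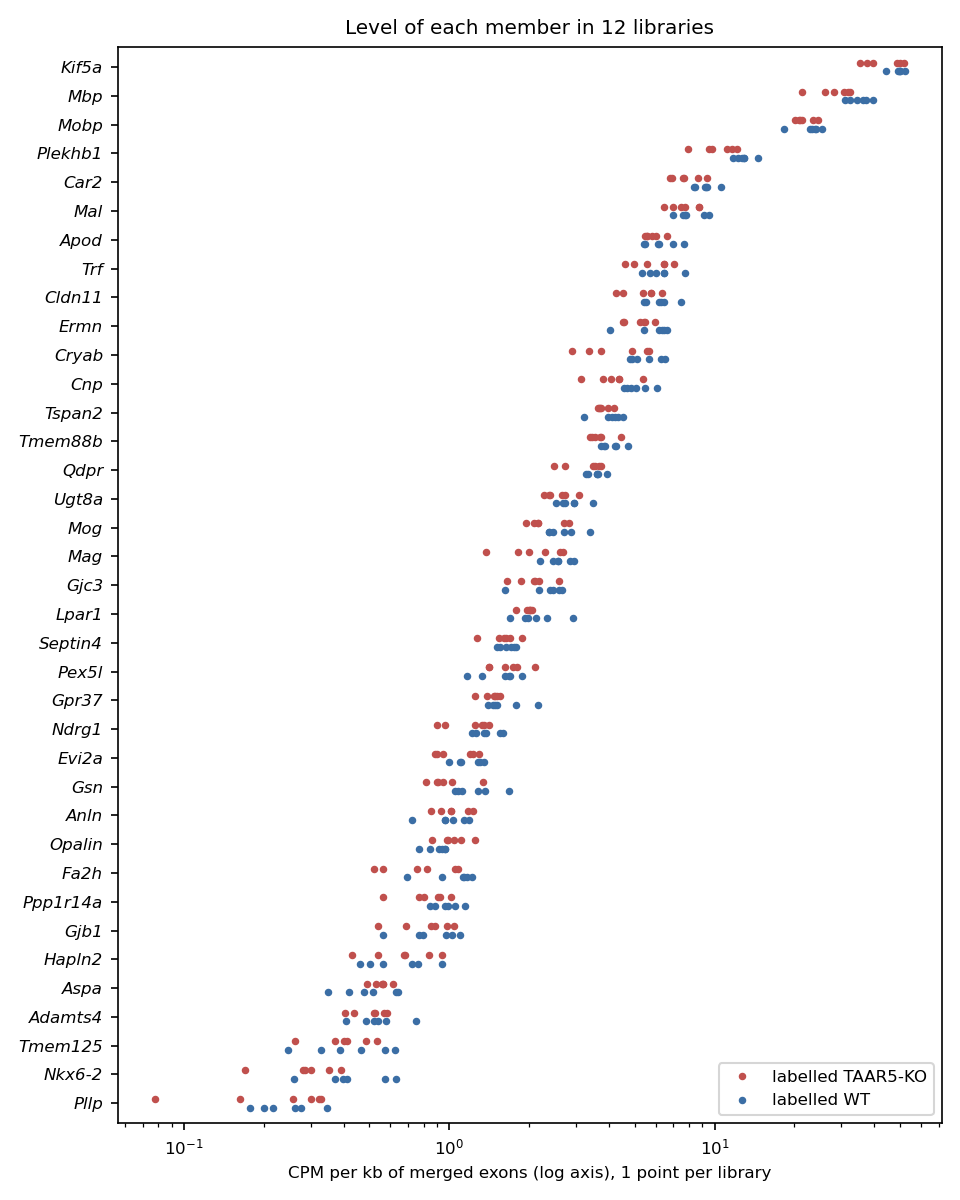
Level of each of the 37 members in CPM per kilobase of merged exons (log axis), with 1 point per library, red for the 6 KO-labelled and blue for the 6 WT-labelled libraries. Members are ordered from 0.244 (Pllp) to 46.5 (Kif5a), and red and blue points overlap for every member.

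No myelin or mature oligodendrocyte gene differed between the labels past the threshold, yet most lay slightly lower under the KO label. By edgeR's likelihood ratio test, with Benjamini-Hochberg adjustment over all features and a threshold of 0.1, 0 of 37 members were called, where 1.65% of the 13902 features were (0.691% as lower). By edgeR's quasi-likelihood test 0 members were called too, where 0.453% of features were. DESeq2 called 2 members (Mbp, adjusted p = 0.0945, and Plekhb1, adjusted p = 0.0938), where it called 1.27% of the 13902 features. DESeq2 gave 7009 of these features no adjusted p, so it adjusted over fewer features than edgeR, and its share among those adjusted is higher. On the log2 scale 31 members were lower and 6 higher, so 83.8% were lower beside 51.1% of all features tested. The median log2 fold change, KO-labelled over WT-labelled, was −0.12 for the members and −0.01 for all features, and single members ran from −0.36 to 0.23.

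At an unadjusted p under 0.05, 8 of the 37 members (21.6%) differed by the likelihood ratio test, beside 11.9% of all features, and all 8 were lower, beside 5.51% of features for that direction. These were Plekhb1, Mbp, Cnp, Car2, Cryab, Gsn, Fa2h and Cldn11. The quasi-likelihood test gave 7 members under that p, beside 12.0% of features. For 0 members the KO-labelled and WT-labelled values were free of overlap, as they were for 1.01% of features. In bulk striatum, fewer oligodendrocytes and less of a transcript per oligodendrocyte cannot be told apart.

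In the fit over all 12 libraries, the intervals left room for only small mean differences in most members. The standard errors of the members' log2 fold changes ran from 0.0954 to 0.299 with a median of 0.121, below the median of 0.168 over all features. The 95% interval excluded a 1.5-fold difference in either direction for 31 of 37 members, and it lay wholly below 0 for 8. The lowest bound, −0.87, belonged to Nkx6-2, a homeodomain factor of low level. These intervals take the fitted dispersion as known and use a normal multiplier, so they may be too narrow. They also take the 12 libraries as 1 set and do not bound the difference within a part of them. Within the 5 libraries with low TMM factors, a set chosen after seeing the data, the 35 members tested had log2 fold changes from −0.72 to 0.27.

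**Figure D2:**
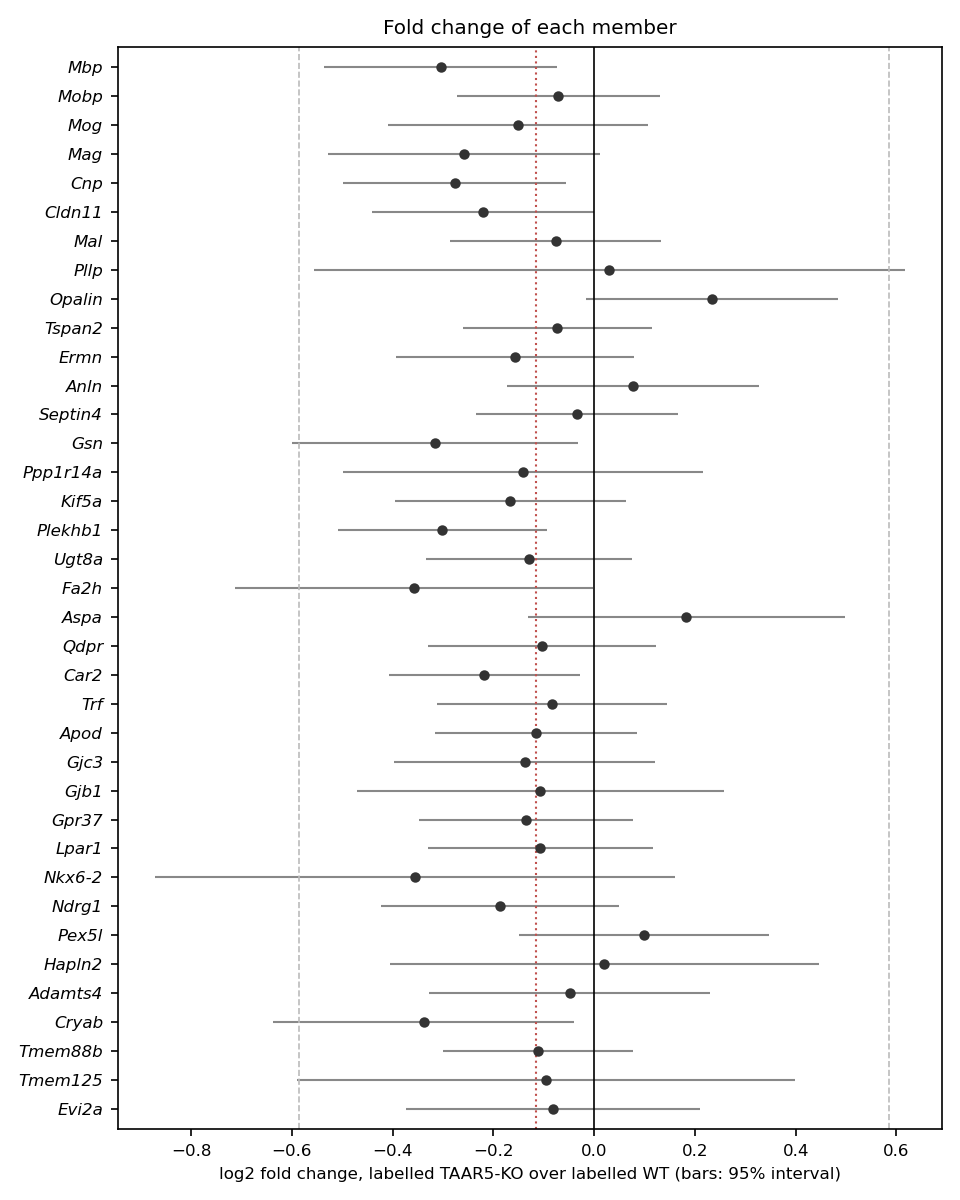
Log2 fold change of each member, KO-labelled over WT-labelled (points), with its 95% interval from the likelihood ratio fit (bars), grouped by role. The dotted line is the members' median of −0.12, the dashed lines mark a 1.5-fold difference, and the intervals of 8 members lie wholly below 0.

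The lean toward lower values was of unequal size in the library sets with low and high TMM factors. Within NK1, NK2, NK3, NK9 and NK10, the median log2 fold change of the members was −0.36 beside −0.01 for all features, and 30 of the 35 members tested there were lower. In that fit of 3 against 2 libraries, 9 members passed the likelihood ratio threshold, all lower, where 6.51% of features did. The library sets were chosen after seeing the data. NK1, NK2 and NK3 had the lowest member scores of all libraries, and NK10 had the highest value of 17 members. These calls therefore describe the libraries in the set and are no independent support for a difference between the labels. They were Mbp, Mag, Cnp, Plekhb1, Car2, Trf, Gpr37, Cryab and Tmem88b. Within the other 7 libraries, 3 KO-labelled and 4 WT-labelled, the median was −0.03 beside 0.00 for all features, 20 of 37 members (54.1%) were lower beside 49.8% of features, and 0 members were called where 0.577% of features were. With the likelihood ratio test, 1 member had an unadjusted p under 0.05 in those 7 libraries, Kif5a, where 8.49% of features did. The difference between the library sets was not itself tested.

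Markers of some other cells moved with the members in the low-factor set, and those of others went the other way. The summed level of 8 choroid plexus markers was 2.76, 3.59 and 4.21 CPM in KO-labelled NK1, NK2 and NK3, and 208 and 247 CPM in WT-labelled NK9 and NK10, so in that set it separated the labels. The scores (mean log2 CPM of a list less each gene's mean) of the astrocyte markers, −0.24, −0.31 and −0.41 in NK1, NK2 and NK3, were the lowest of the 12 libraries. So were those of the microglia markers, −0.34, −0.27 and −0.41. The part of other cells' RNA and of library composition in the members' lower values was not tested.

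The structural proteins of the myelin membrane were 10 members, of which 8 were lower and 2 higher, with a median log2 fold change of −0.11 and 0 called. Mbp (ENSMUSG00000041607.18, chr18:82493271-82603762 on GRCm39, plus strand) ran from 180.3 through a median of 250.2 to 276 CPM in the KO-labelled libraries. It ran from 264 through a median of 300 to 336 CPM in the WT-labelled libraries. The groups overlapped, but 4 KO-labelled libraries lay below every WT-labelled one, with NK1 lowest and NK7 highest. The means were 241 ± 36.0 and 298 ± 26.8 CPM (SD, n = 6), a log2 fold change of −0.30 with a standard error of 0.12 and an edgeR likelihood ratio adjusted p of 0.221 (0.270 by the quasi-likelihood test).

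Mobp, whose promoter window held the run of SOX core matches, had a smaller difference. Mobp (ENSMUSG00000032517.17, chr9:119978773-120010550 on GRCm39, plus strand) ran from 137 through a median of 145 to 168 CPM in the KO-labelled libraries and from 125 through 162 to 175 CPM in the WT-labelled ones. No KO-labelled library lay below all WT-labelled libraries, and the lowest value of all was in WT-labelled NK12. The log2 fold change was −0.07 with an interval from −0.27 to 0.13 and a likelihood ratio adjusted p of 0.849 in edgeR. The ratio of Mobp to Mbp CPM, which library scaling cannot move, ran from 0.454 in NK12 to 0.791 in NK1, so these basic protein transcripts did not keep a fixed ratio among the libraries.

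Cnp, the cyclic nucleotide phosphodiesterase of non-compact myelin, was lower in most KO-labelled libraries. Cnp (ENSMUSG00000006782.17, chr11:100465730-100482555 on GRCm39, plus strand) averaged 15.2 ± 2.71 CPM under the KO label and 18.6 ± 2.05 under the WT label (SD, n = 6). Of the KO-labelled libraries 5 were below every WT-labelled library, the exception being at 19.6 CPM against a lowest WT-labelled value of 16.6. The log2 fold change was −0.28 with a standard error of 0.11 (edgeR likelihood ratio test, adjusted p = 0.263). Without KO-labelled NK4 it was −0.36 with an adjusted p of 0.0493 by the same edgeR test, and with Plekhb1 it was one of 2 members called there, where 2.99% of features were called. Its exons share 463 bases, 12.7% of its exon length, with Dnajc7 on the opposite strand, and since the strand setting of the counting is not given in the sources used here, reads from that stretch cannot be assigned to either gene with certainty.

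Opalin, a sialylated membrane protein particular to oligodendrocytes of the central nervous system, went the other way from Cnp. Opalin (ENSMUSG00000050121.10, chr19:41050149-41065552 on GRCm39, minus strand) averaged 3.06 ± 0.386 CPM under the KO label and 2.65 ± 0.231 under the WT label (SD, n = 6). Of the KO-labelled libraries 5 exceeded every WT-labelled library, with NK1 highest and NK11 lowest. Its log2 fold change of 0.23 was the highest of the 37, with an interval from −0.02 to 0.48, and it did not pass the test (edgeR likelihood ratio test, adjusted p = 0.467). NK1 was thus the library where Opalin was highest and Mbp and Cnp were lowest.

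Among the other structural genes, Cldn11, the claudin of the tight junctions within the sheath, had a log2 fold change of −0.22 (SE 0.11, edgeR likelihood ratio adjusted p = 0.417). Mag, an adhesion protein of the membrane next to the axon, was at −0.26 and Mog, a protein of the outermost lamella, at −0.15, and neither passed the test (edgeR adjusted p = 0.448 and 0.702). Mal, a proteolipid of membrane sorting, Tspan2, a tetraspanin, and Pllp were at −0.08, −0.07 and 0.03. The 2 to 20 counts of Pllp left a wide interval, from −0.56 to 0.62, and 54.2% of its exon length overlaps an opposite-strand feature, Gm45767.

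The cytoskeleton, scaffold and transport genes were 7 members, 6 lower and 1 higher, with a median of −0.16 and 0 called. Plekhb1 (ENSMUSG00000030701.18, chr7:100292099-100311621 on GRCm39, minus strand) had the smallest p of all members. Its CPM ran from 29.5 through a median of 38.8 to 45.1 in the KO-labelled libraries and from 43.7 through 47.4 to 54.0 in the WT-labelled ones. Only KO-labelled NK4, at 45.1, and WT-labelled NK12, at 43.7, crossed, so 5 libraries of each label lay outside the range of the other. The log2 fold change was −0.30 with a standard error of 0.11 (edgeR likelihood ratio adjusted p = 0.153, and 0.213 by the quasi-likelihood test), and without NK4 it was −0.35 with an edgeR adjusted p of 0.0562. Within the 7 libraries with high TMM factors it was −0.09, and within the 5 with low factors −0.63.

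Kif5a (ENSMUSG00000074657.6, chr10:127061565-127099217 on GRCm39, minus strand), the member of highest level, ran from 248 through a median of 309 to 361 CPM under the KO label and from 309 through 348 to 364 under the WT label. The ranges overlapped, with 3 KO-labelled libraries below all WT-labelled ones, and the log2 fold change was −0.17 (interval −0.40 to 0.06). Gsn, the actin-severing protein gelsolin, was at −0.32 with 5 KO-labelled libraries below all WT-labelled ones (SE 0.14, edgeR likelihood ratio adjusted p = 0.347). Ermn, an actin-binding protein of the sheath, and Ppp1r14a, an inhibitor of myosin phosphatase, were at −0.16 and −0.14. Septin4, a septin filament protein, and Anln, which binds septins and actin, were at −0.03 and 0.08, and edgeR's likelihood ratio adjusted p for these 4 genes was 0.655 or higher.

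The lipid, metabolism and carrier genes were 7 members, 6 lower and 1 higher, with a median of −0.12 and 0 called. Car2, the carbonic anhydrase of oligodendrocytes, ran from 16.5 through a median of 18.5 to 22.7 CPM under the KO label and from 20.3 through 22.3 to 25.7 under the WT label. Of the KO-labelled libraries 4 lay below all WT-labelled ones, and the log2 fold change was −0.22 (SE 0.10, edgeR likelihood ratio adjusted p = 0.324). Apod, a lipid-binding lipocalin, ran from 14.1 through 14.7 to 17.0 CPM and from 14.0 through 15.8 to 19.8 CPM under the KO and WT labels, with no KO-labelled library outside the WT-labelled range and a log2 fold change of −0.12.

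The enzymes of myelin glycolipid showed unequal differences. Fa2h, which hydroxylates the fatty acids of galactosylceramide, had the lowest log2 fold change of the 37 at −0.36 (SE 0.18, edgeR likelihood ratio adjusted p = 0.410), and it is a gene of low level, with 19 to 125 counts per library. Ugt8a, which adds the galactose, was at −0.13 with an interval from −0.33 to 0.07. Aspa, which frees acetate from N-acetylaspartate for lipid synthesis, was at 0.18, with an interval from −0.13 to 0.50, and without WT-labelled NK12 it was at 0.07. Trf, the iron carrier transferrin, and Qdpr, which recycles tetrahydrobiopterin, were at −0.08 and −0.10.

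The connexin genes Gjc3 and Gjb1 were both slightly lower without passing the test. Gjc3 ran from 7.18 through a median of 9.12 to 11.3 CPM under the KO label and from 7.07 through 10.6 to 11.6 under the WT label. Gjb1 ran from 0.919 through 1.49 to 1.78 CPM and from 0.963 through 1.51 to 1.88 CPM. For both the ranges nearly coincided, and the log2 fold changes were −0.14 (interval −0.40 to 0.12) and −0.11 (interval −0.47 to 0.26).

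The receptor, transcription and signalling genes were 5 members, 4 lower and 1 higher, with a median of −0.14 and 0 called. Lpar1, a receptor for lysophosphatidic acid, ran from 7.68 through a median of 8.60 to 8.80 CPM under the KO label and from 7.27 through 8.79 to 12.5 under the WT label, so 3 WT-labelled libraries exceeded all KO-labelled ones and the lowest value was also WT-labelled. Pex5l, which binds peroxisomal signals and in neurons the HCN channels, ran from 12.5 through 14.8 to 18.6 CPM and from 10.3 through 14.6 to 16.6 CPM under the KO and WT labels, with a log2 fold change of 0.10 (interval −0.15 to 0.35, and 0.01 without KO-labelled NK6). Both genes had groups that overlapped widely. Gpr37, a G protein-coupled receptor of oligodendrocytes, Ndrg1, a stress-responsive protein of myelinating glia, and Nkx6-2 were at −0.14, −0.19 and −0.36. Nkx6-2 had 4 to 22 counts per library, and 12.9% of its exon length lies over Inpp5a on the opposite strand.

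The matrix and stress genes were 3 members. Cryab, a small heat shock protein abundant in oligodendrocytes and also made by astrocytes, ran from 4.30 through a median of 6.38 to 8.34 CPM under the KO label and from 7.11 through 7.97 to 9.60 under the WT label. The groups overlapped, with 3 KO-labelled libraries below all WT-labelled ones, and the log2 fold change was −0.34 (SE 0.15, edgeR likelihood ratio adjusted p = 0.328). Hapln2, a link protein of the matrix at the nodes of Ranvier, ran from 1.01 through 1.61 to 2.22 CPM and from 1.09 through 1.53 to 2.22 CPM under the KO and WT labels. Its groups nearly coincided, its log2 fold change was 0.02, and that of Adamts4, a proteoglycan-cleaving protease, was −0.05.

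The membrane proteins of less known role were also 3, all lower, with a median of −0.10 and 0 called. Tmem88b ran from 11.8 through a median of 12.5 to 15.4 CPM under the KO label and from 12.9 through 14.0 to 16.4 under the WT label, with 4 KO-labelled libraries below all WT-labelled ones and a log2 fold change of −0.11 (interval −0.30 to 0.08). Evi2a ran from 2.03 through 2.47 to 2.97 CPM and from 2.28 through 2.75 to 3.09 CPM under the KO and WT labels, with a log2 fold change of −0.08. The ranges overlapped in both, and 17.9% of the exon length of Evi2a is shared with Evi2 on the same strand. Tmem125 was at −0.10 with an interval from −0.59 to 0.40.

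As a score per library, the mean over the 37 members of log2 CPM less each gene's own mean, the members averaged −0.08 ± 0.13 under the KO label and 0.08 ± 0.10 under the WT label (SD, n = 6), a difference of −0.15 with no test made. NK1, NK2 and NK3 had the lowest scores, −0.24, −0.17 and −0.14, and NK4, NK5 and NK6 had 0.08, −0.05 and 0.07. The WT-labelled libraries NK7 to NK12 had, in order, 0.07, 0.08, 0.02, 0.22, 0.14 and −0.07. The KO-labelled libraries thus held both low scores and scores inside the WT-labelled range.

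Many members shared the libraries of their lowest and highest values. Of the 37 members, 23 had their lowest value in NK1, NK2 or NK3, and 17 had their highest in NK10. NK10 also had the fewest counts outside ribosomal RNA, 1819907. How often all features had their lowest or highest value in these libraries was not counted, so this sharing cannot be called particular to the members. In the 5 libraries with low TMM factors the score was −0.24 to −0.14 under the KO label and 0.02 to 0.22 under the WT label, and in the other 7 it was −0.05 to 0.08 and −0.07 to 0.14. The differences in mean score were −0.31 and −0.02. The ribosomal RNA share was 86.6% to 88.1% in NK1 to NK3 and 87.4% and 85.6% in NK9 and NK10, and its part in the scores was not tested.

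**Figure D3:**
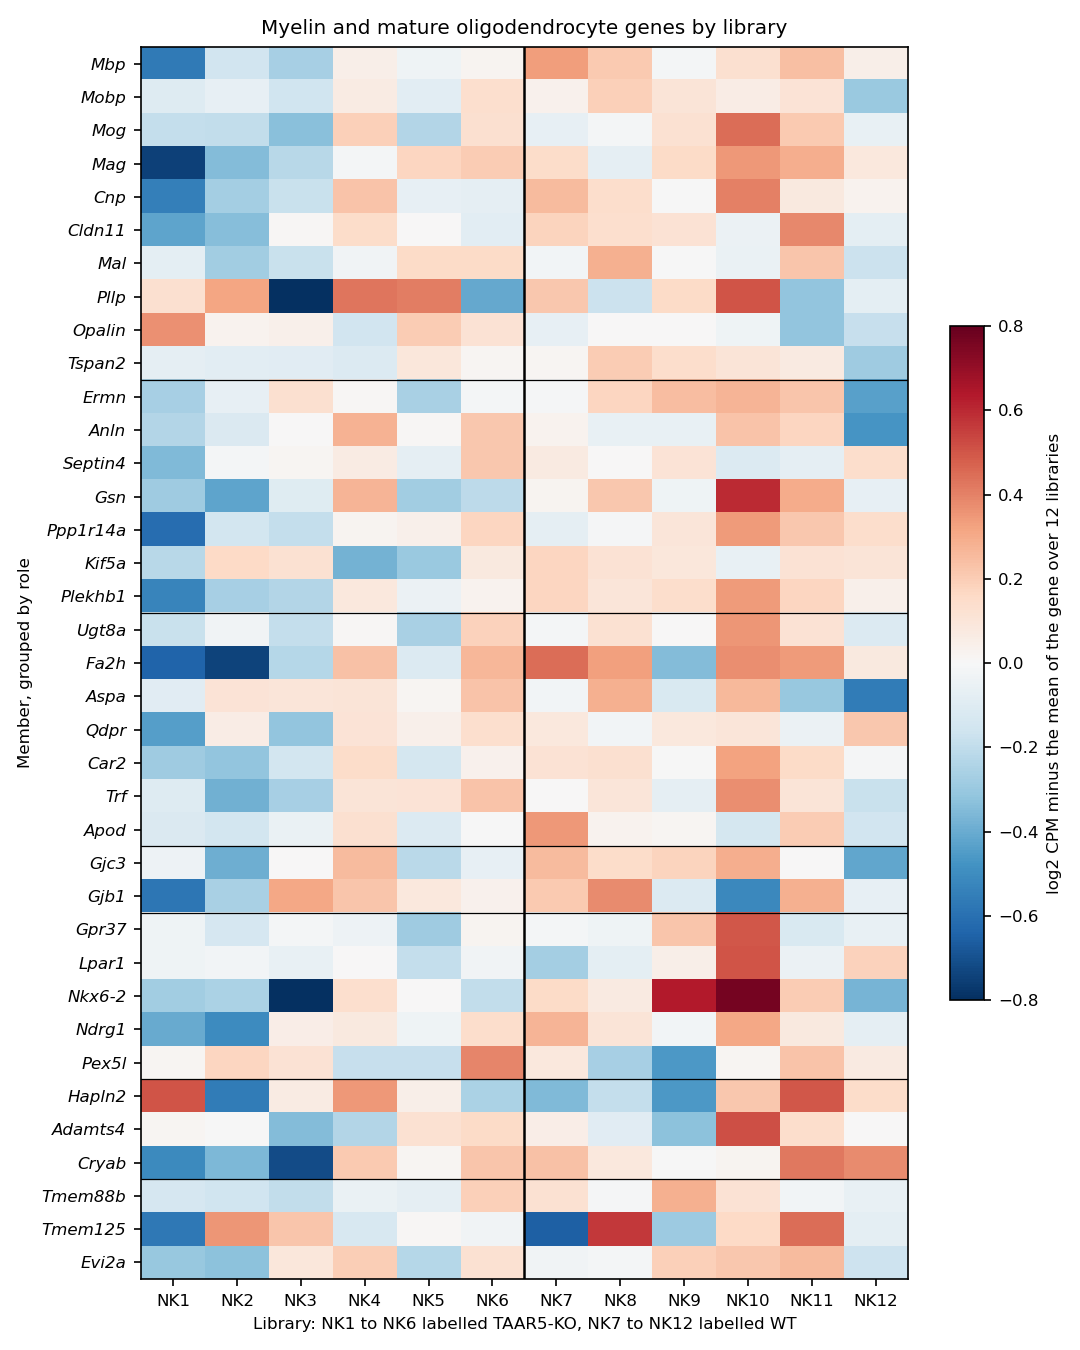
Log2 CPM of each of the 37 members in each of the 12 libraries, less the mean of that gene over the libraries (red above, blue below, colours held at 0.8), with members grouped by role and a vertical line between KO-labelled NK1 to NK6 and WT-labelled NK7 to NK12. NK1, NK2 and NK3 are blue for most members and NK10 is mostly red, and 23 members have their lowest value in NK1 to NK3.

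The members listed by hand as also transcribed by other cells and the rest had similar medians. The 10 shared members (Trf, Gsn, Apod, Kif5a, Cryab, Car2, Qdpr, Ndrg1, Lpar1 and Pex5l) had a median log2 fold change of −0.14. The 27 others, whose transcription in other cells was not checked, had a median of −0.11, and 22 of them were lower. The members lie on 17 chromosomes, with at most 6 on 1 of them (chromosome 3), and 13 share exon bases with another feature.

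Over all features, fold changes moved with base composition, and its part in the members' values was not tested. The merged exons of the members had a median GC content of 50.9%, beside 48.4% for all features tested. The 18 members above their median GC content had a median log2 fold change of −0.15 and 6 of them had an unadjusted p under 0.05, whereas the 18 below had −0.11 and 1. Over all features the medians on the same sides of that GC content were −0.10 (5196 features) and 0.05 (8705 features). Against the median of features in their own bin of GC content, 1 of 20 bins, 28 of the 37 members were lower, by a median of 0.11 on the log2 scale. With each library's trend on GC content removed, the members' median was −0.09 beside 0.01 for all features, 26 of 37 were lower beside 48.7% of features, and 5 had an unadjusted p under 0.05 beside 9.02% of features.

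**Figure D4:**
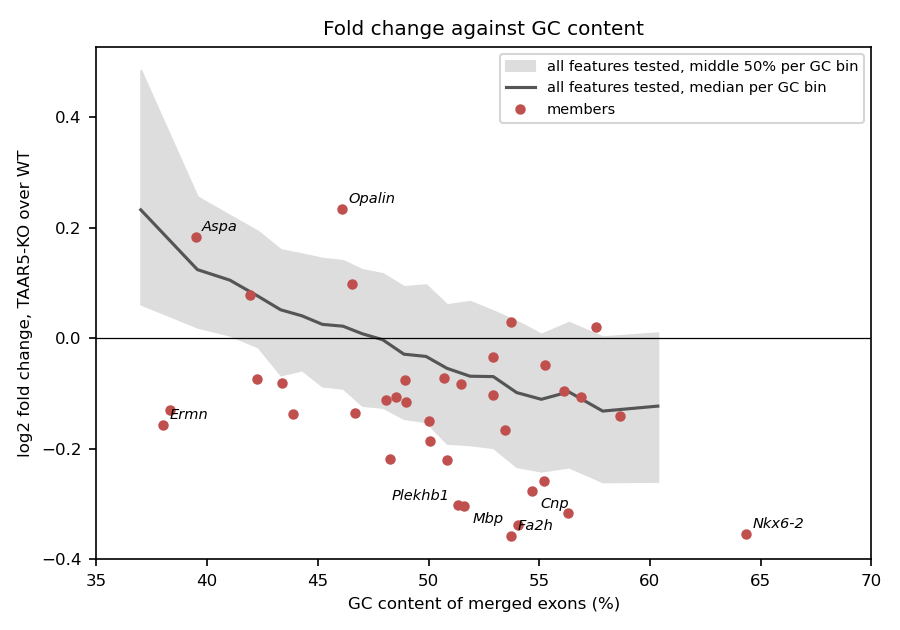
Log2 fold change, KO-labelled over WT-labelled, against the GC content of merged exons in percent, with members as red points and all 13902 features as the median (line) and the middle 50% (grey) in 20 bins. The line falls from above 0 at low GC content to below 0 at high GC content, and 28 of the 37 members lie below the median of their bin.

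Other genes of the lineage, in lists that also were drawn up with earlier results known, leaned the same way, and 1 of them passed the test. Of 36 other oligodendrocyte genes tested (of 37 listed), 32 were lower, the median log2 fold change was −0.21, and 1 was called, Olig1. Enpp2 of that list was at 22.7 to 34.1 CPM in NK1, NK2, NK3, NK6 and NK12, where choroid plexus markers were also low. Enpp2 was at 79.5 to 273 CPM in the other libraries, and the part of choroid plexus RNA in its values was not tested. Olig1, a basic helix-loop-helix factor of the whole lineage, averaged 4.14 ± 0.739 CPM under the KO label and 6.14 ± 0.760 under the WT label (SD, n = 6), and the 2 groups of libraries did not overlap. Its log2 fold change was −0.51 with a standard error of 0.12 (edgeR likelihood ratio adjusted p = 0.0118, quasi-likelihood adjusted p = 0.0882). With the GC trend removed its log2 fold change was −0.37 and it was not called (edgeR adjusted p = 0.190), and within the 7 libraries with high TMM factors it was −0.32 and not called (edgeR adjusted p = 0.423). Within the 5 with low factors it was −0.91 and called. Of 10 precursor markers 9 were lower, with a median of −0.20 and 0 called, and of 18 genes of myelin lipid and cholesterol synthesis 13 were lower, with a median of −0.10 and 0 called.

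Markers of other cells were measured beside the members in the same fit. All 10 microglia markers were lower, with a median of −0.36, and their summed level was 39.4 to 54.6 CPM under the KO label and 55.3 to 65.9 under the WT label, without overlap. Of these P2ry12, a purine receptor (−0.36, adjusted p = 0.0773), C1qc, a complement chain (−0.58, adjusted p = 0.0730), and Csf1r, the receptor for colony-stimulating factor (−0.36, adjusted p = 0.0913), passed edgeR's likelihood ratio test and none passed the quasi-likelihood test. Of 12 astrocyte markers 11 were lower, with a median of −0.22, and the astrocyte connexin Gja1 was called (−0.41, edgeR likelihood ratio adjusted p = 0.0568). The astrocyte summed level was 1129 to 1318 CPM under the KO label and 1227 to 1439 under the WT label.

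The spiny neuron list leaned the other way. Of 12 spiny neuron markers 11 were higher on the log2 scale, with a median of 0.29 and 0 called, and their summed level was 414 to 524 CPM under the KO label and 247 to 448 under the WT label. The lowest of these values belonged to NK11 alone, and the other WT-labelled libraries began at 387 CPM. The difference in mean score of that list was 0.26 with NK11 and 0.12 without it, and KO-labelled NK6, at −0.10, was below every WT-labelled library but NK11. The 8 cortical neuron markers and the 10 endothelial markers had medians of 0.04 each, with 0 called. The summed cortical level nevertheless varied widely among libraries, from 40.6 to 132 CPM under the KO label and from 46.7 to 144 under the WT label. Thus the median of the members, −0.12, lay between that of the spiny neuron list and those of the astrocyte and microglia lists. The part of a different share of neuronal and glial RNA in the members' values was not tested.

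Markers of tissue next to the striatum were also read. The 8 choroid plexus markers were all lower with a median of −0.52 and 0 called, and their summed level ran from 2.76 to 481 CPM under the KO label and from 3.84 to 293 under the WT label, with low values in NK1, NK2, NK3 and NK6 under the KO label and in NK12 under the WT label. Of 8 leptomeningeal and fibroblast markers 6 were tested, with a median of −0.34 and 0 called. Schwann cells, the myelinating cells of peripheral nerve, were nearly absent, since none of their 5 markers passed the filter, the summed level was at most 0.656 CPM, and Pmp2 and Dhh had no more than 3 counts in any library. In all, 5 of the 130 genes tested from these 11 lists were called, beside 1.65% of all features.

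**Figure D5:**
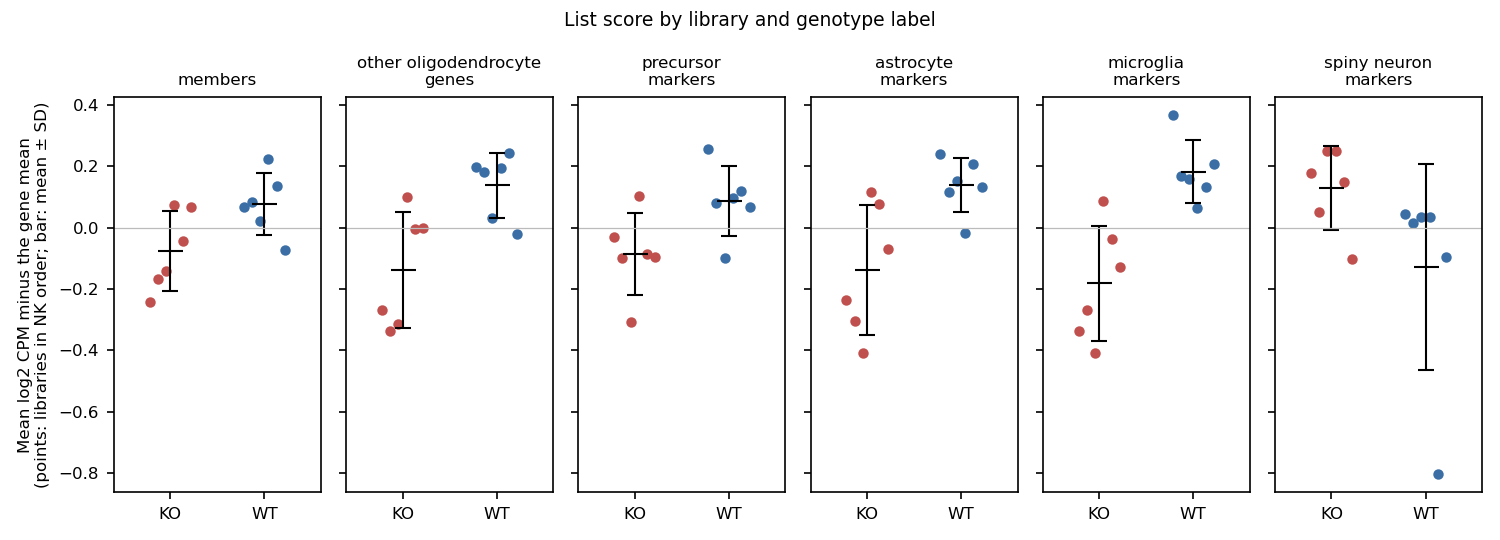
Score per library (mean log2 CPM of a list less each gene's mean) for the members and for 5 lists of other oligodendrocyte, precursor, astrocyte, microglia and spiny neuron genes, with red points for KO-labelled and blue for WT-labelled libraries in NK order and black bars for mean ± SD (n = 6). The members average −0.08 and 0.08 with overlapping points, microglia markers lie lower and spiny neuron markers higher under the KO label.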

How the data were processed

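Striatal RNA was depleted of ribosomal RNA and made into directional libraries per the labels. The authors trimmed reads with cutadapt 4.1, aligned them to GRCm39 (GENCODE M35) with STAR 2.7.11b, and took gene counts from featureCounts 2.0.6. The deposited values are raw counts, and the strand setting is not given in the sources used here. Columns were assigned to genotype groups by name, and 12 other per-library columns in the table, not assigned to either group, were not used.

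The counts were fitted with edgeR 4.0.16 in R 4.3.3 (TMM scaling, glmFit, likelihood ratio test). The test, the cut-offs of the filter and the threshold are those the study's methods name, which do not name TMM or the library size behind the filter. The study gives 13053 features tested, the number left here when the filter used TMM-scaled library sizes. The reported fit filtered on total counts instead, which left 13902. The matching number of features did not bring matching calls. With the filter on TMM-scaled library sizes 234 features were called here, 135 higher and 99 lower. The study reports fewer, most of them lower. Features with at least 0.5 CPM in at least 3 libraries were tested, p-values were adjusted by Benjamini-Hochberg over all of them, and features under 0.1 were called. Intervals are fitted value and standard error at 95%, with a normal multiplier and the fitted dispersion taken as known. Alternatives were edgeR's quasi-likelihood test, DESeq2 1.42.0, other scalings and filters, removal of ribosomal RNA features or of trends, and each library left out. The fits within library sets were chosen after seeing the data. The code was tested on simulated data.

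The members, role groups and other lists were chosen with earlier results of these data known. Values per library were given for members past the threshold, of which there were none, and for the 2 members of highest CPM per kb in each role group. Others were named by smallest p, or, for Opalin and the printed sequences, after their values were seen. The study's methods give 6 mice per group, but no source ties a library number to a mouse. The total count per library is a poor guide to depth for the members, since Rn18s-rs5 alone took 78.1% of counts. NK1 had the most counts, 34824450, with 2355 of Mbp, whereas NK12 had 18420441 with 12164 of Mbp.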

Additional observations from a re-analysis of the deposited data

Results flagged for a closer look

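Dixon's test of the most distant library was applied to the log2 CPM of each member and to the score within each group of 6 libraries, 76 groups in all, and it marked 4. Chance marks about 1 group in 20, so 4 of 76 is no more than that. Mobp in WT-labelled NK12 stood at 6.96, below the nearest WT-labelled library at 7.30. Kif5a in WT-labelled NK10 stood at 8.27, below the nearest at 8.43. Lpar1 in KO-labelled NK5 stood at 2.96, below the nearest at 3.09. Tmem88b in KO-labelled NK6 stood at 3.95, above the nearest at 3.71.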

How the results depend on the processing

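The number of members called was 0 in every alternative fit over all libraries except DESeq2, which called 2. Leaving out each library in turn gave 0 to 2 (2 without NK4, Cnp and Plekhb1). In the library sets taken apart by TMM factor, 9 members were called with factors below 1 and 0 with factors above 1, where the median log2 fold changes were −0.36 and −0.03 and the score differences −0.31 and −0.020. When library size alone set the scale, the members' median was −0.55, but that of all features was −0.49, and the score difference was −0.64. In the other fits over all libraries, or all but 1, the median stayed between −0.17 and −0.09, although without a filter it was −0.14 beside −0.11 for all features, and leaving out each library gave −0.17 to −0.09. Called genes of the other cell type and lineage lists are given with the share of all features called in brackets. They numbered 5 in the reported fit (1.65%). There was 1 by the quasi-likelihood test (0.453%), without a filter (0.213%), with ribosomal RNA features removed (0.724%) and with ribosomal RNA share as a covariate (0.705%). There were 0 with library size only (0.0504%), 3 with the length trend removed (1.44%) and 2 with the GC trend removed (0.619%). The low-factor and high-factor library sets gave 29 (6.51%) and 1 (0.577%). Leaving out each library gave 1 to 14 (0.616% to 2.99%), with 14 without NK4 (2.99%) and 9 without NK9 (2.37%). The share of all features called thus also changed with the fit. The cause was not tested for any of these.

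Of 850 fold changes of single members under 23 alternative fits, those of the library sets not counted, 814 kept both direction and side of the threshold, 4 newly passed it (Mbp and Plekhb1 by DESeq2, at −0.30 each, and Cnp and Plekhb1 without NK4) and 32 changed sign. With library size only, Pllp, Opalin, Anln, Aspa, Pex5l and Hapln2 went to −0.45, −0.26, −0.30, −0.24, −0.43 and −0.48. Without a filter, Pllp and Hapln2 went to −0.0013 and −0.014. With the GC trend removed, Septin4, Ppp1r14a, Gjb1, Adamts4 and Tmem125 went to 0.049, 0.00074, 0.011, 0.061 and 0.017. With ribosomal RNA share as a covariate, Septin4 and Hapln2 went to 0.019 and −0.022. With each library left out, Pllp ran from −0.11 to 0.21, Anln from −0.011 to 0.13, Septin4 from −0.098 to 0.022, Hapln2 from −0.075 to 0.15, Adamts4 from −0.11 to 0.014 and Tmem125 from −0.24 to 0.056. Leaving out 1 library moved 26 of the 37 uncalled values by over 1.5 times or across 0, among them Gjb1 to −0.03 and Ppp1r14a to −0.06 without NK1. The KO-labelled minus WT-labelled difference in counts outside ribosomal RNA, 20708, ran from −355891 to 559965. No paired analysis was possible because the columns carry library numbers and not the animal numbers of the labels. Members of low level are limited by depth, Pllp above all, with 2 to 20 counts per library.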
